A study of Mus musculus with 2 samples.

Results

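The septum transversum is the sheet of embryonic mesoderm into which the liver bud grows, and its surface cells give rise to the mesothelium of the liver. The genes described here are 10 transcription regulators that pattern this mesoderm and the neighbouring proepicardium and heart field: Hand2, Tbx3, Tbx5, Tbx20, Isl1, Msx1, Msx2, Hlx, Mab21l2 and Foxf1. They were taken by gene symbol, with every probe set that the array carries for them. This gave 23 probe sets for the 10 genes, among 45101 probe sets on the array and 18193 genes with a probe set of their own.

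Sorted liver mesothelial cells from C57BL/6 mice at 2 stages were compared, each on 1 Affymetrix array. The adult cells came from livers of mice aged 8 weeks and were sorted with an antibody to Mesothelin, a surface glycoprotein of mesothelium. The E12.5 cells came from livers at embryonic day 12.5 and were sorted with an antibody to PCLP1, the sialomucin encoded by Podxl. Both livers were dissociated with collagenase, and 10 ng of total RNA was amplified in 2 cycles before hybridisation. The series was designed to profile mesothelial cells at these stages. With 1 array per stage there was no spread between replicates to test against, and the stage cannot be told apart from the sorting antibody or from the array. How many animals went into a sort is not given in the sources used here.

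As background, these factors are known from mouse embryos as part of an early mesodermal programme. BMP signals from the septum transversum and heart help to induce and expand the liver bud, and Msx1, Msx2, Tbx3 and Hand2 are activated by BMP signalling in several embryonic tissues. Hedgehog signals from endoderm maintain Foxf1 in the mesenchyme around the gut tube. In mice, loss of Hlx or of Mab21l2 leaves the embryonic liver small, with the gene acting in the mesenchyme and not in the hepatoblasts.

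On the adult array 8 of the 9 detected septum transversum factors had signals at least 2-fold lower than on the E12.5 array, 3 of them by a lower limit of the fold, where 29.1% of all detected genes did, and Msx1 lay within 2-fold. A signal is an intensity in arbitrary units, and the adult array was put on the scale of the E12.5 array by the ratio of their medians, as in the authors' own ratio. All differences are log2 signal in adult minus log2 signal at E12.5. Hand2, Foxf1, Tbx20, Isl1 and Hlx were called present on both arrays, and all 5 were at least 2-fold lower in adult, between 8.75-fold for Hand2 and 2.23-fold for Hlx. Over all 10154 genes with a present call on both arrays, the share at least 2-fold lower in adult was 27.1%, and the share at least 2-fold higher 13.2%. The result for Isl1 and Hlx depended on the scaling: after quantile normalization they were 1.80-fold and 1.73-fold lower, and with the detected genes centred 1.76-fold and 1.72-fold lower. Tbx20 and Foxf1 came closer to the 2-fold mark. They were 2.03-fold and 2.47-fold lower after quantile normalization, and 2.02-fold and 2.12-fold lower with the detected genes centred. Tbx3, Msx2, Mab21l2 and Msx1 were called present at E12.5 alone, and Tbx5 on neither array. No member was called present in adult alone.

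**Figure D1:**
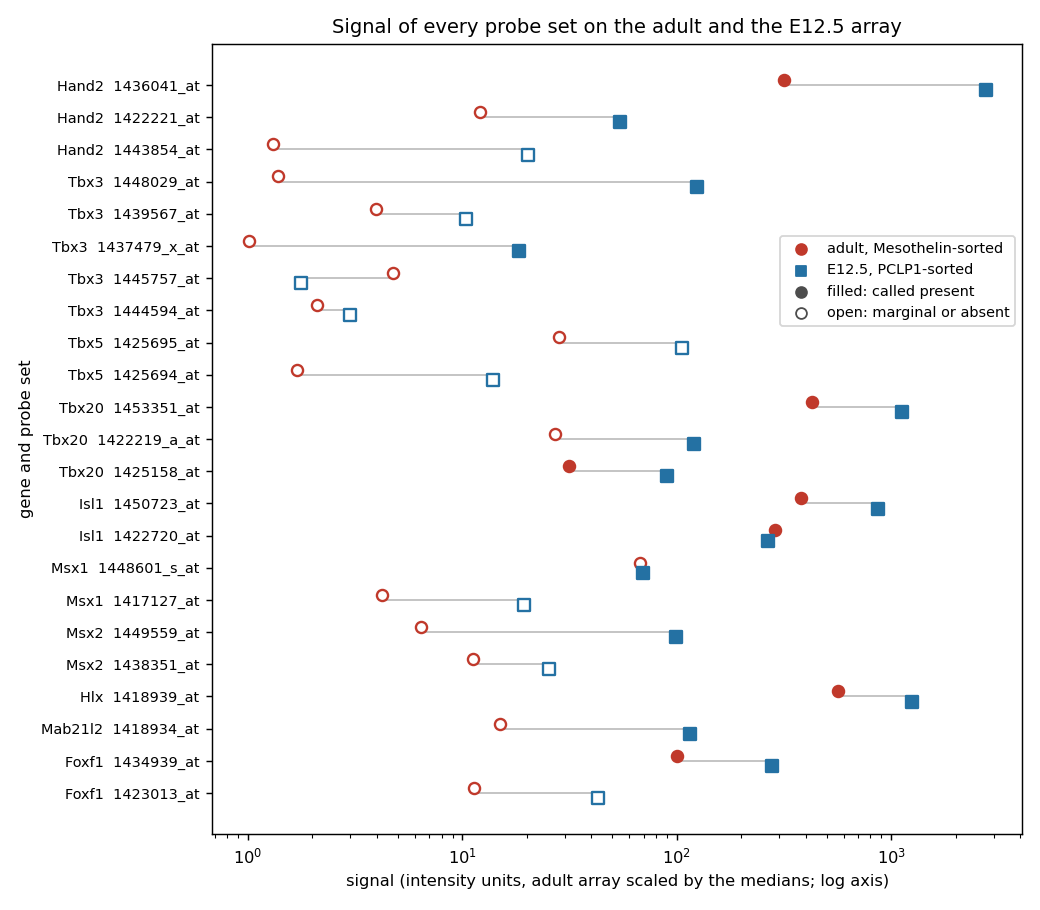
Signal of each of the 23 probe sets (rows) on the adult array (circles) and the E12.5 array (squares), on a log axis in intensity units. Filled symbols were called present, open symbols marginal or absent. Of the 14 rows with a filled symbol, the adult signal is the lower one in 13 (58.5% of all detected probe sets). The exception is 1 probe set of Isl1. Rows filled at E12.5 alone passed the detection filter through that array, and the 9 rows with open symbols alone carry no direction.

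Over the probe sets, 7 of the 23 were called present in adult (30.4%) and 14 at E12.5 (60.9%). Among all probe sets other than controls the shares were 52.2% in adult and 51.9% at E12.5. Of the 14 member probe sets detected on at least 1 array, 7 were present on both, 6 were present at E12.5 and absent in adult, and 1 was present at E12.5 and marginal in adult. A present call at E12.5 with an absent call in adult was seen for 11.5% of all detected probe sets, and a present call in adult with an absent or marginal call at E12.5 for 13.1%. By their folds or lower limits, 12 of the 14 were at least 2-fold lower in adult and none at least 2-fold higher, where 26.6% and 18.7% of all detected probe sets were. The 6 absent in adult passed the detection filter through E12.5 alone, so that their lower adult value follows from the filter. Hand2, Tbx3, Tbx20 and Isl1 each count here with more than 1 probe set. Of the 7 present on both arrays, which belong to 5 genes, 6 were at least 2-fold lower in adult. The same share over all probe sets present on both arrays was not counted. Over all genes present on both arrays it was 27.1%. The other 9 of the 23 member probe sets were detected on neither array, and their values carry no direction.

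Hlx and Foxf1 are mesenchymal factors of the gut and liver. Hlx (Entrez gene 15284), a homeobox gene of visceral mesenchyme, has 1 probe set. It read 562 in adult and 1256 at E12.5, present on both arrays, a difference of -1.16 on the log2 scale. The Hlx call did not change between the sorts, only the signal. Foxf1 (Entrez gene 15227), a forkhead factor of lateral and visceral mesoderm, read 101 in adult and 277 at E12.5 with its brighter probe set, 2.75-fold lower in adult. Its other probe set was absent on both arrays, at 11.3 in adult and 43.1 at E12.5.

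Mab21l2 (Entrez gene 23937), a member of the small Mab21 family that acts in eye, body wall and liver mesenchyme, also has a single probe set. It read 15.0 in adult with an absent call and 116 at E12.5 with a present call, at least 7.70-fold lower in adult. Such a fold is called a lower limit here. The E12.5 signal was divided by the adult one or, where that was lower, by 5.84, the dimmest signal called present on the adult array. It is a limit under this rule alone. With a floor at the median signal of absent calls, Tbx3 was 11.6-fold, Msx2 9.31-fold and Mab21l2 7.70-fold lower in adult. With a pseudocount of 16 they were 8.03-fold, 5.14-fold and 4.24-fold lower. Members with such a limit passed the detection filter only through the array on which they were bright. Their lower adult value thus follows from the filter. Counting them by this limit, 8 of the 9 detected members were at least 2-fold lower in adult and none was at least 2-fold higher, where 29.1% and 17.0% of all 12801 detected genes were. Over all genes, 63.2% of these 2-fold differences were lower in adult, a share that ran from 45.8% with the detected genes centred to 80.3% without scaling. At 4-fold lower the count was 4 of 9, against 10.2% of all detected genes. Of these 4, Tbx3, Msx2 and Mab21l2 were counted by the limit, and only Hand2 was present on both arrays.

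Hand2, Tbx3, Msx1 and Msx2 are the members best known as BMP-responsive genes. Hand2 (Entrez gene 15111) encodes a basic helix-loop-helix factor of heart, limb and neural crest derivatives. Its brightest probe set, 1436041_at, read 315 in adult and 2755 at E12.5, present on both arrays, a difference of -3.13. Among all detected genes, 3.66% had a lower (more negative) difference. The second detected probe set, 1422221_at, read 12.1 in adult with an absent call and 54.3 at E12.5 with a present call, at least 4.47-fold lower in adult. The remaining one was absent on both arrays, at 1.31 in adult and 20.3 at E12.5. The name matters here, because the deposited table lists the brightest probe set under a similar-to-Hand2 locus and the platform annotation lists it under Hand2. With the symbols of the deposited table, Hand2 would rest on the second probe set. Its fold would then be a lower limit, and Hand2 would count as detected at E12.5 alone.

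Tbx3 (Entrez gene 21386), a T-box repressor that is also made by hepatoblasts, has 5 probe sets, the most of any member. The probe set 1448029_at read 1.38 in adult with an absent call and 124 at E12.5 with a present call. This is at least 21.2-fold lower in adult, and 89.4-fold by the measured signals, of which the adult one lies below the lowest detected signal of that array. A second detected probe set, 1437479_x_at, whose suffix marks probes that may match other transcripts, read 1.01 in adult and 18.3 at E12.5, at least 3.14-fold lower in adult. The other 3 were absent on both arrays, with signals from 2.10 to 4.73 in adult and from 1.77 to 10.4 at E12.5. The Tbx3 difference thus rests on 2 of 5 probe sets, and hepatoblast markers, given further on, were lower in adult as well.

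The 2 Msx genes, closely related homeobox repressors, differed from each other. Msx2 (Entrez gene 17702) read 6.42 in adult with an absent call and 99.2 at E12.5 with a present call, at least 15.4-fold lower in adult. Its second probe set was marginal on both arrays, at 11.2 in adult and 25.4 at E12.5. Msx1 (Entrez gene 17701) read 67.3 in adult with a marginal call and 69.3 at E12.5 with a present call, a difference of -0.04. The probe set behind this value, 1448601_s_at, may match related transcripts, and it decides the call: the other Msx1 probe set was absent on both arrays, at 4.22 in adult and 19.3 at E12.5. Msx1 is thus measured by 1 probe set of uncertain specificity, and its difference turned to 0.33 with the detected genes centred and to 0.27 with trimmed means set equal. Both Msx genes had low signals, and a difference between their responses was not tested.

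The promoters of Hand2, Msx1 and Msx2 are shown because these BMP-linked members had different readings: Hand2 and Msx2 were at least 2-fold lower in adult and Msx1 lay within 2-fold. Tbx3, the remaining BMP-linked member, is not shown because no promoter was matched for it. Each line holds the 250 bases before the annotated start, 5' to 3' on the gene's strand, from RefSeq on GRCm38.p6. Capitals mark the homeodomain core TAATTA and the CCAAT box, on either strand (ATTGG on the opposite one). The coordinates are chr8:57320733-57320982 on the plus strand for Hand2, chr5:37824586-37824835 on the minus strand for Msx1 and chr13:53472781-53473030 on the minus strand for Msx2.
Hand2: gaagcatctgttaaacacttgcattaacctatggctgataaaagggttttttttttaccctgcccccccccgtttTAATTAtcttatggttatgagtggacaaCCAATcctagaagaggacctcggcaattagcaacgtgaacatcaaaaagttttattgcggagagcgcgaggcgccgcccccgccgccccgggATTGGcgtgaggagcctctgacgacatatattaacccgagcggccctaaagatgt
Msx1: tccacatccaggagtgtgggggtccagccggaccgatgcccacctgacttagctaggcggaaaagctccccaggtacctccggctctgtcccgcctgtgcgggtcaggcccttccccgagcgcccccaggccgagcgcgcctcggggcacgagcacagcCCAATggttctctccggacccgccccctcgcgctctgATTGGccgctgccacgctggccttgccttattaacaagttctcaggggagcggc
Msx2: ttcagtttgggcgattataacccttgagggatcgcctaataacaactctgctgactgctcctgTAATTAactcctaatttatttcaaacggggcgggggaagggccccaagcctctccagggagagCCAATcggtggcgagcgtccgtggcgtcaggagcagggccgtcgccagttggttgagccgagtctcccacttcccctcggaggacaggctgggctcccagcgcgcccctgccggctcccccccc

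RefSeq promoters were matched for 7 of the 10 members: Hand2, Tbx20, Isl1, Msx1, Msx2, Hlx and Mab21l2. TAATTA, which reads the same on both strands, was present in 2 of the 7, once each in Hand2 and Msx2. Of all 32851 promoter windows of this length, 4.84% hold it. It was found in none of Msx1, Tbx20, Isl1, Hlx and Mab21l2, of which all but Msx1 were at least 2-fold lower in adult. CCAAT on either strand was present in 6 of the 7, with Tbx20 the exception, and in 33.8% of all windows. This motif was added after the sequences had been read. GGGCGG was present in 4 of 7 (32.7% of all windows), CANNTG, the E-box bound by Hand2 and its partners, in 4 of 7 (66.2%), and GGTGTG, a T-box core, in none of 7 (16.3%). The forkhead core TGTTTA and the GATA core AGATAA were found in Hand2 alone among the 7 (12.03% and 9.988% of all windows). Both strands were searched for each motif, and the motifs can overlap. The 7 windows had a ratio of observed to expected CpG between 0.68 in Msx2 and 1.05 in Isl1, with a median of 0.75, where the median of all windows was 0.37. Their GC content ran from 41.6% in Hlx to 71.2% in Isl1. These matches describe the letters of the windows. The printed promoters were picked by their readings, and a link between a motif and a reading was not tested.

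Tbx5, Tbx20 and Isl1 are the members best known from the heart fields. Tbx20 (Entrez gene 57246), a T-box factor of heart and lateral plate mesoderm, has 3 probe sets, all detected and all lower in adult. The brightest, 1453351_at, read 428 in adult and 1119 at E12.5, present on both arrays and 2.61-fold lower in adult. The second, present on both arrays, read 31.3 in adult and 90.1 at E12.5 and was 2.88-fold lower. The last read 27.0 in adult with an absent call and 120.5 at E12.5 with a present call, at least 4.47-fold lower. Tbx20 is the only member with more than 2 detected probe sets. Those present on both arrays gave the same direction. The direction of the last follows from the detection filter, which it passed through E12.5 alone.

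Isl1 (Entrez gene 16392), a LIM homeodomain factor of cardiac progenitors and motor neurons that is also needed in embryonic stomach mesenchyme, was present on both arrays with both of its probe sets. The brighter, 1450723_at, read 378 in adult and 863 at E12.5, 2.28-fold lower in adult. The other, 1422720_at, read 287 in adult and 265 at E12.5, a difference of 0.11. Both were designed from the same transcript record, and their log2 differences lie 1.31 apart. Averaged over both, Isl1 was 1.45-fold lower in adult, under the 2-fold mark. Tbx5 (Entrez gene 21388), a T-box factor of heart and forelimb that lies next to Tbx3 in the genome, was absent on both arrays. Its probe sets read 28.2 and 1.69 in adult and 106 and 13.9 at E12.5, so that no fold is given.

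**Figure D2:**
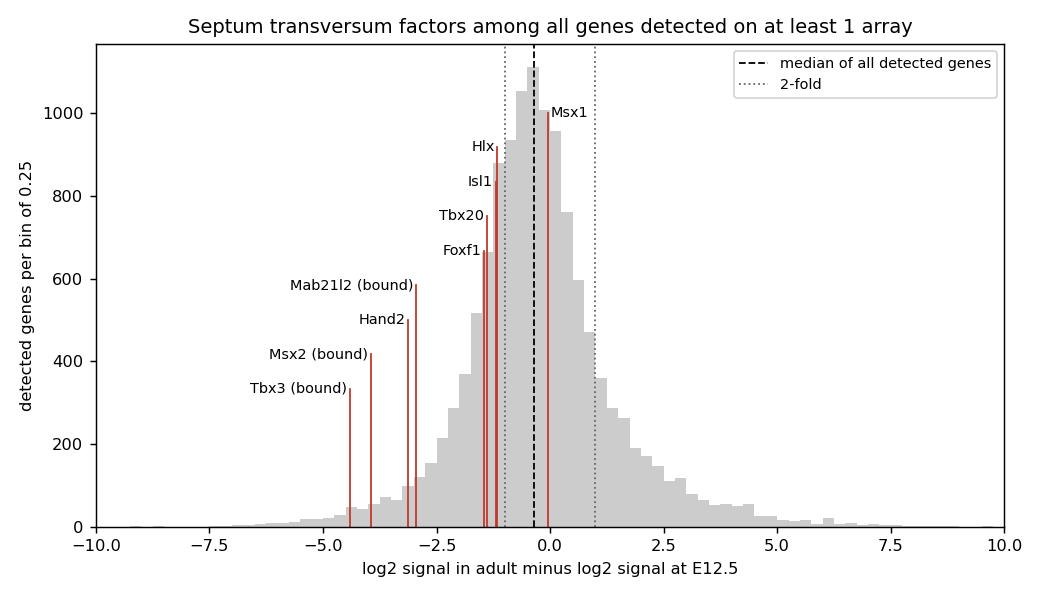
Histogram of the log2 difference, adult minus E12.5, over the 12801 genes detected on at least 1 array, in bins of 0.25 (grey), with each detected member as a red line. The heights of the red lines only separate the names. Tbx3, Msx2 and Mab21l2, by their lower limits, and Hand2 lie in the left tail. Foxf1, Tbx20, Isl1 and Hlx lie between the 2-fold line and the tail, and Msx1 right of the dashed median of -0.34.

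The members' differences ran from -4.40 for Tbx3 (a lower limit of the fold) to -0.04 for Msx1, with a median of -1.46 over the 9 detected and -1.39 over the 5 detected on both arrays. The median over all detected genes was -0.34, and -0.37 over genes detected on both arrays. Relative to the median of all detected genes, Hand2 stood at -2.78, Foxf1 at -1.12, Tbx20 at -1.04, Isl1 at -0.85 and Hlx at -0.82. The share of detected genes with a lower difference than the member was 1.24% for Tbx3, 1.90% for Msx2 and 4.28% for Mab21l2, all by their lower limits. These members were detected at E12.5 alone, so that their sign follows from the detection filter and their rank from the limit used. The share was 17.8% for Foxf1, 19.2% for Tbx20, 23.9% for Isl1 and 24.7% for Hlx, so that these 4 lay well within the bulk of the lower genes. For Msx1 it was 60.01%. As a yardstick, log2 differences of probe sets that read the same gene, both present on both arrays, had a pooled SD of 0.62 (4279 genes). The differences of Hlx and Isl1 were 1.87 and 1.92 of these SDs and that of Hand2 5.05, where the SD measures disagreement between probe sets and not error between arrays. Control probe sets read from the 3' and the 5' end of a transcript had a signal ratio, 3' over 5', of 6.81 in adult and 2.07 at E12.5 for Gapdh and of 3.47 in adult and 1.93 at E12.5 for beta-actin. The part of this difference in the members' values was not tested.

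**Figure D3:**
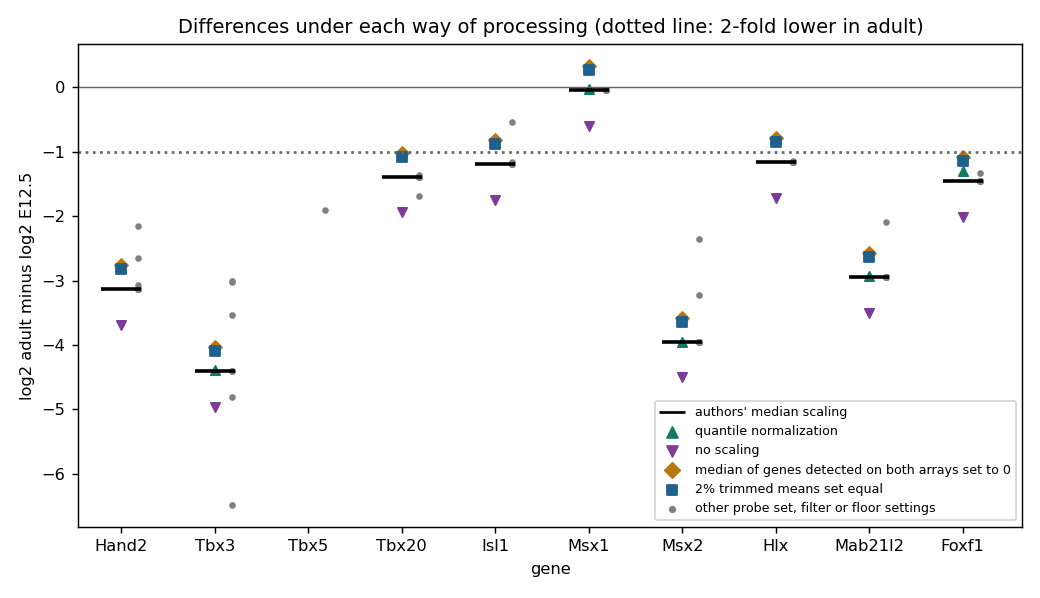
Log2 difference, adult minus E12.5, of each member (horizontal axis) under each way of processing, with the authors' median scaling as a black bar. The dotted line marks 2-fold lower in adult. Hand2, Tbx3, Tbx20, Msx2, Mab21l2 and Foxf1 lie below the line under every setting shown, Isl1 and Hlx cross it, and Msx1 lies near 0. Tbx3, Msx2 and Mab21l2 were detected at E12.5 alone, so that their sign follows from the detection filter. Tbx5 has a value, -1.91, only where no detection filter was used.

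The closest paralogues of the members gave no common direction. Of 16 listed, 7 were detected, of which 2 were at least 2-fold lower in adult, 2 at least 2-fold higher and 3 neither, with a median of -0.58. Tbx18, a T-box gene of proepicardium, read 66.9 in adult and 455 at E12.5 (6.80-fold lower in adult), and Tbx2, the nearest relative of Tbx3, 36.7 in adult and 156 at E12.5 (4.26-fold lower). Tbx4 (86.9 in adult and 32.7 at E12.5) and Tbx6 (60.9 in adult and 26.7 at E12.5) were higher in adult, by 2.66-fold and 2.28-fold, at low signals. Without scaling, 4 were at least 2-fold lower and none higher.

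Other transcription factors of the septum transversum, proepicardium and lateral plate, a list that shares Tbx2, Tbx18, Hand1, Foxf2 and Mab21l1 with the paralogues, were at least 2-fold lower in adult in 11 of 23 detected genes (30 listed), higher in 1 and within 2-fold in 11, with a median of -0.92. The count of lower genes was 17 without scaling and 9 with the detected genes centred. Lhx2, a LIM homeobox gene of liver mesenchyme, read 1.32 in adult and 239 at E12.5 (at least 40.9-fold lower in adult), and Sall4, a zinc finger factor of embryonic progenitors, 5.77 in adult and 125 at E12.5 (at least 21.4-fold lower). Tcf21, a basic helix-loop-helix factor of epicardium, was at least 9.21-fold lower, with another detected probe set at 0.24. The 1 gene at least 2-fold higher was Osr1, a zinc finger gene of intermediate and lateral mesoderm, with 1998 in adult and 63.7 at E12.5 (31.3-fold higher in adult). Nearest to the members' median, by the absolute gap between log2 differences over the 2 arrays, were Irx5 (-1.35), Barx1 (-1.79) and Nr2f2 (-1.08). With so few arrays this likeness is a match of 1 number per gene.

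The signalling inputs named above did not go one way. Of 24 detected BMP pathway genes (27 listed) 5 were at least 2-fold lower in adult, 5 higher and 14 neither. The count of lower genes was 10 without scaling and 3 with the detected genes centred, where 6 were higher, or with trimmed means set equal. Their median of -0.19 turned to 0.19 with the detected genes centred, to 0.06 after quantile normalization and to 0.04 with trimmed means set equal. The ligand gene Bmp4 read 3130.3 in adult and 274 at E12.5 (11.4-fold higher in adult). A relation of BMP pathway signals to the members' values was not tested. The BMP antagonist gene Chrdl1 (23.4-fold) and the activin and BMP binding protein gene Fst (6.22-fold) were also higher in adult, and the ligand gene Bmp5 was at least 9.44-fold lower. Of 12 detected hedgehog pathway genes (14 listed) 6 were at least 2-fold lower in adult (3 with the detected genes centred or with trimmed means set equal), 3 higher and 3 neither, with a median of -0.85. Hhip, an antagonist that hedgehog signalling switches on, was at least 5.06-fold lower in adult, at a low signal, and the co-receptor genes Boc (6.78-fold), Cdon (6.25-fold) and Gas1 (3.93-fold) were higher. Ptch1, Gli3 and Gli1, present on both arrays, were lower in adult by 3.13-fold, 3.56-fold and 2.22-fold. Another Ptch1 probe set stood at -0.19, and Gli1 at -0.78 with the detected genes centred. A relation of hedgehog pathway signals to the members' values was not tested.

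Of 10 listed neighbours of the members in the genome, 5 were detected, and some differed in direction from the member beside them. Fendrr, a noncoding RNA gene beside Foxf1, read 679 in adult and 276 at E12.5 and was 2.46-fold higher in adult, where Foxf1 was 2.75-fold lower (without scaling the Fendrr difference was 0.74). Mthfsd, on the other side of Foxf1, lay within 2-fold (295 in adult and 505 at E12.5). Lrba, the gene whose span holds Mab21l2, read 782 in adult and 359 at E12.5, 2.18-fold higher in adult by the brightest of 3 probe sets, which all gave this direction, where Mab21l2 was at least 7.70-fold lower. Without scaling the Lrba difference was 0.57. Around Tbx3 and Tbx5, which have 0 protein-coding genes between them, Rbm19 was 2.20-fold lower in adult (a difference of -0.76 with the detected genes centred) and Med13l had probe sets that differed in direction (-0.73 and 0.99).

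Markers of the sorted cells and of other cell types were set beside these values, since in sorted bulk RNA fewer cells of a type and less RNA per cell cannot be told apart. Of 12 mesothelial markers, 12 were present in adult and 11 at E12.5, with signals summed over the detected genes of 82612 in adult and 36887 at E12.5, and the sorting antigens read 11835 in adult and 48.5 at E12.5 (Msln) and 1807 in adult and 6069 at E12.5 (Podxl). In the hepatoblast, erythroid, and stellate and mesenchymal lists most detected genes were at least 2-fold lower in adult, as for the members. For hepatoblast markers this was 8 of 10 detected (summed signals of 2797 in adult and 28649 at E12.5, Foxa2 detected on neither array). For erythroid markers it was all 9 of the 9 detected (376 in adult and 4303 at E12.5, Hba-x and Alas2 detected on neither). Stellate and mesenchymal markers, of cells that also use Hand2 and Foxf1, were at least 2-fold lower in adult in 7 of 12 (4 with the detected genes centred or with trimmed means set equal) and higher in 2, yet their summed signal was 25528 in adult and 9008 at E12.5, of which Dcn made up 18789 in adult and 1493 at E12.5. All 12 of 12 macrophage and leukocyte markers had at least 2-fold higher signals in adult (29373 in adult and 958 at E12.5), as did 4 of 10 endothelial markers, with the other 6 within 2-fold (14839 in adult and 2026 at E12.5, Pecam1 and Erg detected on neither). Heart muscle markers were at least 2-fold lower in adult in 4 of 9, higher in 1 and within 2-fold in 4, with a median difference of 0.47 and with Nkx2-5, Tnni3 and Myl2 detected on neither array and Tnnt2 at 16.7 in adult (absent) and 143 at E12.5. Of 9 measured markers of neural crest and neurons, which share Hand2 and Isl1, 4 were detected, at a summed signal of 395 in adult and 132 at E12.5, and Sox10, Th, Dbh, Ret and Tubb3 were detected on neither array. The part of these cells in the members' values was not tested.

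**Figure D4:**
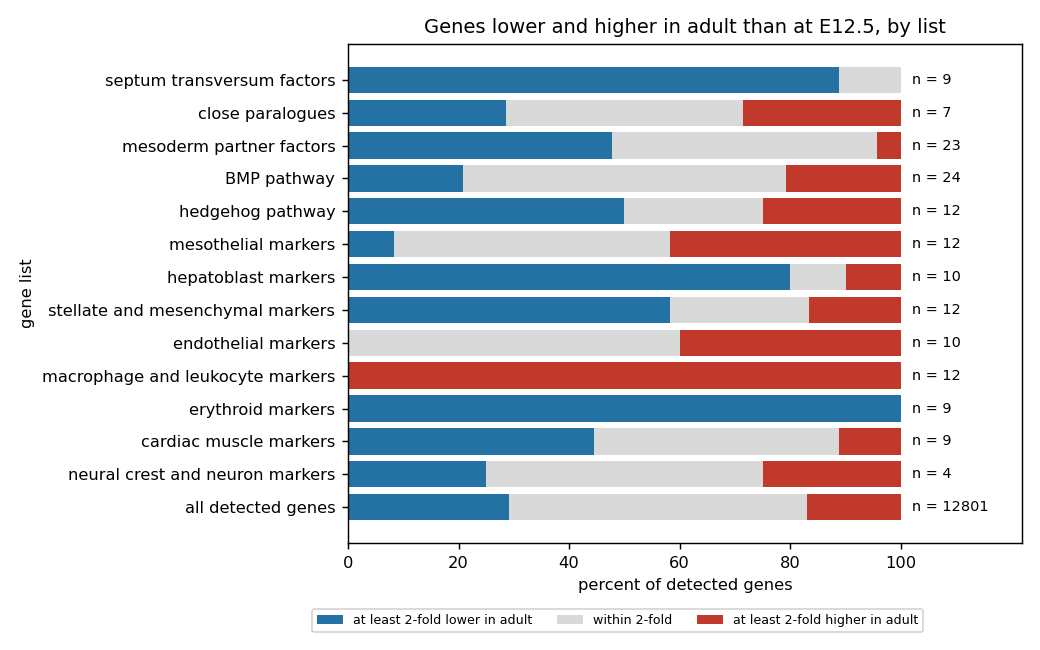
Percent of the detected genes of each list that were at least 2-fold lower in adult than at E12.5 (blue), within 2-fold (grey) or at least 2-fold higher in adult (red), with the number detected at the right. The 8 blue of 9 septum transversum factors include 3 counted by a lower limit, and the bottom bar gives all 12801 detected genes.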

How the data were processed

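The authors deposited, for 45101 probe sets on 2 arrays, a raw signal, which per the file headers is a linear intensity, together with a present, marginal or absent call. The submitters' processing notes name Affymetrix Expression Console. How probes were combined into probe sets is not given in the sources used here. On the values, the deposited ratio of adult to E12.5 equals the raw ratio divided by 0.680, the ratio of the array medians (29.9 in adult and 44.0 at E12.5), with a floor of 0.01. This median scaling was the main setting. The second deposited table held the same intensity values, rounded.

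A probe set was detected where called present. Control probe sets (64) stayed out. Probe sets were named from the platform annotation, updated by Entrez number through RefSeq (GRCm38.p6): 34945 had 1 symbol, 932 several and 9160 none. A gene was read from the detected probe set whose log2 signal, averaged over the arrays, was highest. With 1 array per group no test was run, and the number of arrays limits the precision. Python 3.11.15 and pandas 2.3.3 were used, and the scaling and counting were tested on simulated data. The members, lists and thresholds were chosen with earlier results of these data known. Named genes were all members, up to 4 per pathway list by absolute difference, the 3 partner factors nearest the members' median, all detected neighbours, up to 3 per marker list by brightest signal, and the sorting antigens. Other genes are named where a low count, a defining marker that was not detected or a direct relation to a member called for it, after their values were seen. Ptch1, Gli3 and Gli1 were likewise added after their values were seen, to name more of the lower hedgehog pathway genes. Alternatives were other scalings, probe set rules, detection rules, a pseudocount of 16 and a floor.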

Additional observations from a re-analysis of the deposited data

How the results depend on the processing

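Hand2, Tbx3, Tbx20, Msx2, Mab21l2 and Foxf1 were at least 2-fold lower in adult under all 14 settings, the authors' scaling included, Hlx under 11 and Isl1 under 10. Tbx3, Msx2 and Mab21l2 passed the detection filter through E12.5 alone, so that their lower adult value follows from the filter. Some settings, such as the rounded values, left a member's value as it was, so that the 14 are not independent checks. The count of members at least 2-fold lower in adult was 8 in the authors' scaling and 6 after quantile normalization, with detected genes centred or with trimmed means set equal, where Hlx and Isl1 dropped out. It was 7 with probe sets averaged, where Isl1 alone dropped out, and 9 of 10 with no detection filter, where Tbx5 entered. Without scaling it was 8. The share of all genes at least 2-fold lower in adult was 29.1% in the authors' scaling and 46.5% without scaling. It was 23.2% after quantile normalization, 19.4% with detected genes centred and 20.8% with trimmed means set equal. With probe sets averaged it was 27.5%, and with no detection filter 27.6%. The members' median of -1.46 lay between -2.02 without scaling and -1.09 with detected genes centred under these scalings. It was -2.20 without probe sets of doubtful specificity, a setting that leaves out Msx1. Those scalings moved the median of all detected genes by -0.56 and 0.37, and quantile normalization by 0.24. The gap between the members' median and that of all genes was -1.12 in the authors' scaling and -1.20 after quantile normalization, and the other scalings, which add 1 constant to every difference, cannot change it. Of 2-fold differences over all genes, 63.2% were lower in adult in the authors' scaling, 53.7% after quantile normalization, 48.9% with trimmed means set equal, 45.8% with detected genes centred and 80.3% without scaling. Tbx3 ranged from -6.48 by its measured signals to -3.01 with a pseudocount of 16, Msx2 reached -2.36 with that pseudocount, and Hand2 was -2.16 by the symbols of the deposited table, a setting added after the data were seen. That Hand2 value is a lower limit of the fold. The rounded values of the second table gave the same counts. No paired analysis was possible because each group has 1 array. Signals near the detection limit, among them those of Tbx3, Msx1, Msx2 and Mab21l2 in adult, cannot show how low a transcript was.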

Other observations

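Myl7, an atrial myosin light chain gene, was bright on both arrays, at 7502 in adult and 5422 at E12.5 (a difference of 0.47, and of -0.09 without scaling). Cardiac actin, Actc1, read 30.03 in adult with an absent call and 179 at E12.5 with a present call. Of the neural markers, Stmn2, a microtubule regulator of neurons, read 312 in adult and 49.6 at E12.5 (6.28-fold higher in adult), while Gata3 (43.4 in adult and 40.1 at E12.5) and Phox2a (35.5 in adult and 26.6 at E12.5, absent at E12.5) lay within 2-fold.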
